A study of Homo sapiens with 8 samples.

Results

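The insulin-like growth factor (IGF) system was followed in human embryonic stem cells on their way to blood-forming and vessel-lining cells. Its 10 members were both ligands (IGF1 and IGF2), their receptor (IGF1R) and the binding proteins IGFBP1 to IGFBP7, taken by gene symbol from the annotation of the array. They were represented by 29 of 54675 probe sets, the groups of short oligonucleotides that each measure 1 transcript region. Of these, 26 carried 1 gene symbol and 3 carried several. The 3 were all those of IGF2, whose transcripts overlap the INS-IGF2 readthrough gene, so IGF2 is described by probe set and not as a gene. The other 9 members were among 19775 genes with a probe set of 1 symbol, and all 9 were among the 13636 genes that passed the filter on dim values. IGFBP1 passed that filter on 4 of 8 arrays, all of sorted cells, so a higher value in sorted cells was built into its being tested.

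The samples came from H9, an established human embryonic stem cell line, and their RNA was hybridised to 8 Affymetrix arrays, 2 biological replicates for each of 4 groups. Day 0 was the undifferentiated line, which was not sorted. Days 4, 6 and 8 were cells from haematopoietic differentiation in serum-free StemPro34 medium with BMP-4, sorted for both KDR and CD31 (the product of PECAM1), a pair of surface proteins shared by endothelium and its blood-forming precursors. The line was grown on inactivated mouse embryonic fibroblasts, and the labels do not say whether the 2 replicates of a day came from separate cultures, so p-values measure only the spread between these arrays. Every comparison with day 0 compares both stage and sort, which cannot be told apart, and all of them use the same 2 day 0 arrays. In such bulk samples fewer cells of a type and less RNA per cell cannot be told apart either.

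IGF1 and IGF2 are secreted ligands that signal through IGF1R, a receptor tyrosine kinase, to the insulin receptor substrates, PI3 kinase and AKT. IGFBP1 to IGFBP6 bind both ligands with high affinity in the extracellular space and so set how much ligand can reach the receptor, while IGFBP7 binds IGFs weakly and is a secreted protein of vessel walls. In embryos IGF2 is the more abundant ligand, and proteases such as PAPPA release ligand by cutting IGFBP4.

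The DNA before the start of 4 binding proteins on whose levels the results turn is shown, to let a reader see which exact motif letters each carries. RefSeq promoter windows were found for 7 of the 10 members, with none in the table for IGF2, IGFBP1 and IGFBP7. Each line gives the 100 bases before an annotated start, 5′ to 3′ on the strand of the gene (build GRCh38.p14), with capitals for TATAAA and for GGGCGG, the GC box, on either strand. IGFBP4 lies at chr17:40443350-40443449 on the plus strand and IGFBP2, at start 2 of its 3 starts, at chr2:216633320-216633419 on the plus strand. IGFBP3 lies at chr7:45921273-45921372 and IGFBP5 at chr2:216695550-216695649, both on the minus strand.
IGFBP4: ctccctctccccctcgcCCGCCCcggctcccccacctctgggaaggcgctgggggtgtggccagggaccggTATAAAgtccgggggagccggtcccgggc
IGFBP2: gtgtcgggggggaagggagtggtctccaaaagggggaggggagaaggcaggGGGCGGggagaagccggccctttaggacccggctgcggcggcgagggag
IGFBP3: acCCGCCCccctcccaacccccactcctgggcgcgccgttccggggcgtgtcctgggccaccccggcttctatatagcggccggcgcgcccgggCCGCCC
IGFBP5: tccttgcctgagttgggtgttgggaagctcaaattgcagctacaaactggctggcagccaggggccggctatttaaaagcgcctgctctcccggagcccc
The IGFBP4 window held 1 TATAAA, which began 29 bases before the start, and 1 GC box. TATAAA was present on either strand in 4.99% of all 35116 windows of that length and the GC box in 31.3%. The IGFBP2 window held 1 GC box, that of IGFBP3 held 2, and that of IGFBP5 held neither motif. AGATAA and GGAAGT, letters recognised by GATA and ETS factors, were searched on both strands too and were in none of the 4 windows, against 3.29% and 10.4% of all windows. Only these exact letters were searched, so tatata in the IGFBP3 window and tatttaaa in the IGFBP5 window were not counted. These are matches of letters and not mapped sites, and the lack of a match does not show the lack of an element.

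IGFBP4 and IGFBP2 rose in sorted cells on all 3 days, IGFBP4 by 6.58-fold to 9.39-fold and IGFBP2 by 3.15-fold to 4.2-fold. The brightest IGF2 probe set rose on day 4 and day 8. By its brightest probe set IGF1R differed from day 0 by at most 0.59 on the log2 scale, and neither it nor IGF1 passed the test on any day. IGFBP7 was lower than on day 0 on every sorted array, but its replicates lay up to 12-fold apart. IGFBP3 and IGFBP5 differed between replicates of 1 day by up to 15.9-fold, more than most genes on the arrays. All levels are log2(intensity + 32), and a fold is a difference on that scale, which understates the change of dim genes. Levels of different probe sets are not compared with each other.

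**Figure D1:**
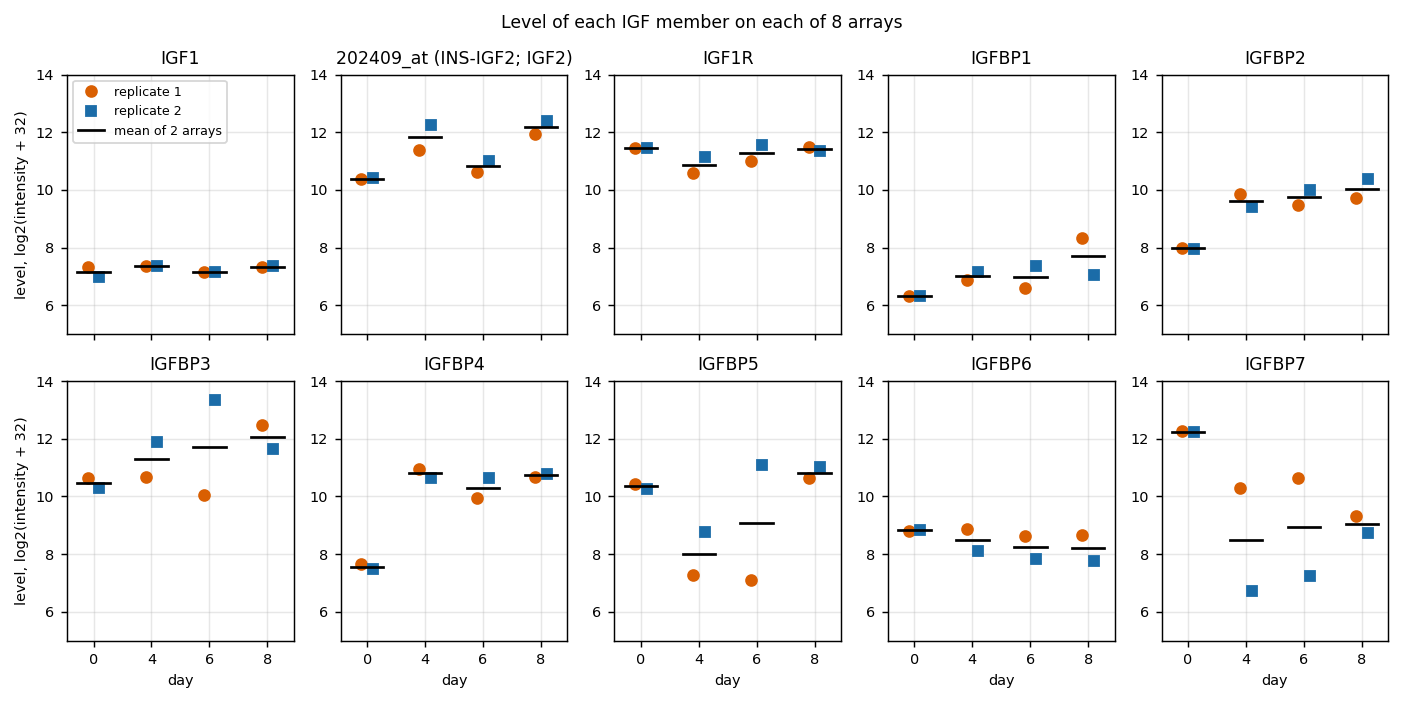
The panels show the level of each member, log2(intensity + 32), against day, with a circle for replicate 1, a square for replicate 2 and a bar for their mean, and IGF2 is drawn from the probe set 202409_at. IGFBP4 and IGFBP2 stand above day 0 on all 6 sorted arrays, while the symbols of IGFBP7, IGFBP5 and IGFBP3 lie far apart on day 6.

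By the lists of gate, endothelial and undifferentiated markers the arrays followed their labels. Both gate genes and 7 of 7 endothelial markers rose from day 0 to day 4, and 6 of 6 markers of undifferentiated cells fell. The sort selected for the gate genes, so their rise was built in. PECAM1, CDH5, ERG, TIE1, ESAM and EMCN were above the array median on sorted arrays alone and NANOG and USP44 on day 0 alone. The direction of these calls was thus favoured by construction. KDR rose by 4.59, PECAM1 by 6.42 and CDH5 (VE-cadherin) by 6.99 on the log2 scale, and SOX2 and NANOG fell by 6.54 and 5.48. Of the lists for other cell types, 0 of 6 tested yolk sac and liver endoderm markers were called as a rise on day 4 and 2 on day 8. The 2 were AFP and SERPINA1, and their day 8 calls were lost in 9 of 20 and 4 of 19 alternatives. Yet all 6 tested endoderm markers were higher than on day 0 on both days, with median changes of 1.95 and 2.19. For red cell markers the calls were 1 and 3 of 4, and for white cell markers 1 of 3 on each day, LAPTM5. The other listed white cell markers, PTPRC and SPI1, were below every array median and were not tested. KLF1, ALAS2, LAPTM5, MPO, FGB and SERPINA1 were above the array median on sorted arrays alone, so their rise was favoured by construction. The day 4 call of KLF1 was lost in 7 of 19 alternatives, and the day 8 calls of HBE1 and ALAS2 in 4 of 20 each. Of 8 fibroblast and smooth muscle markers 4 fell on both days. No marker had an intensity of 0 on any array. Replicates agreed least on days 4 and 6, where 6.67% and 9.25% of genes differed over 2-fold, compared with 0.00733% on day 0 and 1.58% on day 8. Across genes, the first replicates of days 4 and 6 resembled each other (r = 0.976) more than their own partners (0.953 and 0.937), and so did the second replicates (0.974). With the day 8 arrays the first replicates correlated at 0.935 to 0.956 and the second at 0.972 to 0.990. Results are also given without the first replicates of these days, and the single arrays left out are given in both directions where they matter. Where 1 array of a group remains, its spread is taken from the groups with 2 arrays. Without both first replicates these are days 0 and 8, where replicates agreed most, so calls on days 4 and 6 do not measure the spread of those days.

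In the test across genes (limma, 1 fit over 8 arrays, Benjamini-Hochberg adjustment over 13636 genes, called under 0.05, two-sided), 2 of 9 members rose and 0 fell on each day compared with day 0. Over all genes 8.53% rose and 9.92% fell on day 4, 9.74% and 13.6% on day 6, and 10.4% and 14.1% on day 8. The median change of the 9 members was 0.21 on day 4, 0.01 on day 6 and 0.48 on day 8, against 0.02, -0.03 and -0.03 for all genes. Without replicate 1 of day 4 and of day 6, 5 members passed in each comparison (IGFBP2, IGFBP3, IGFBP4, IGFBP5 and IGFBP7 on days 4 and 6, with IGFBP1 in place of IGFBP5 on day 8), where 34.9%, 44.7% and 49.7% of all genes passed in either direction on days 4, 6 and 8.

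**Figure D2:**
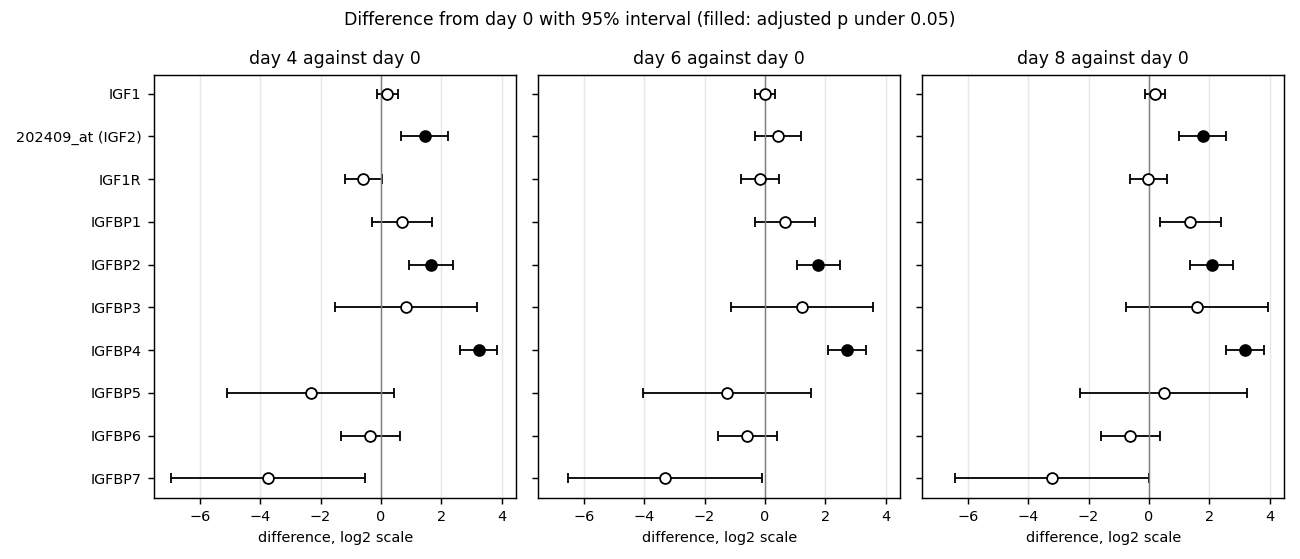
Each point is the difference of a member from day 0 on the log2 scale, in a panel per day, with its 95% interval from limma, and filled points have an adjusted p under 0.05. Filled points mark IGFBP4 and IGFBP2 on all 3 days and the IGF2 probe set 202409_at on days 4 and 8, and the intervals of IGFBP3, IGFBP5 and IGFBP7 are the widest.

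Of the ligands, IGF2 was bright on all arrays by the probe set 202409_at. Its log2 levels were 10.36 and 10.43 on day 0, 11.40 and 12.27 on day 4, 10.63 and 11.01 on day 6, and 11.95 and 12.40 on day 8. All 6 sorted arrays were above both day 0 arrays, and days 4 and 8 did not overlap day 6. In the fit of every probe set on its own, where 14.4%, 18.6% and 19.3% of 30343 probe sets were called on days 4, 6 and 8, the rise was 1.44 ± 0.32 (SE) on day 4, or 2.71-fold (limma, adjusted p = 0.0298). On day 6 the difference was 0.43 ± 0.32 (limma, adjusted p = 0.429), which was not called. On day 8 it was 1.78 ± 0.32, or 3.43-fold (limma, adjusted p = 0.0121). The day 4 call was lost in 7 of 18 alternatives, 5 of them with 1 array left out (either day 0 array, replicate 2 of day 4 or either day 8 array), and its adjusted p ranged from 0.00334 to 0.181. The day 8 call was lost in 3, without either day 0 array or replicate 2 of day 8, with a range from 0.00139 to 0.0943.

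The other IGF2 probe sets had flatter profiles. The probe set 202410_x_at read 6.80 and 6.98 on day 0, 7.25 and 7.29 on day 4, 7.48 and 7.98 on day 6, and 7.61 and 7.46 on day 8. Its order of days was thus not that of 202409_at, and it was called on day 6 (0.84 ± 0.19, limma adjusted p = 0.0241, from 0.00427 to 0.176 over alternatives) and not on day 8 (0.65 ± 0.19, adjusted p = 0.0553). The day 6 call was lost in 4 of 17 alternatives, among them those without either day 0 array or replicate 2 of day 6, and the day 8 difference was called in 6, among them those without either day 6 array. 210881_s_at stayed between 6.65 and 7.23 and was called on no day. Its highest mean was on day 8, as for 202409_at, while that of 202410_x_at was on day 6, where its difference from day 8 was not called (limma, adjusted p = 0.993). Probes whose names end in _x_at can also bind other transcripts.

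IGF1, the ligand known for its endocrine role after birth, read 7.34 and 6.96 on day 0 and 7.37 and 7.35 on day 4. It read 7.16 and 7.16 on day 6 and 7.31 and 7.37 on day 8. Days 6 and 8 overlapped day 0, and both day 4 arrays were above it by less than the gap between the day 0 arrays. The differences of 0.21, 0.01 and 0.19 (each ± 0.14 SE) did not pass on any day. This probe set read 92.7 to 134 in intensity, little above the array medians of 88.8 to 93.4. The lack of a call therefore does not show a steady level. A second probe set above the array median, 209542_x_at, was called on no day, and the 3 others of IGF1 were below the median of all 8 arrays.

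The receptor IGF1R was measured at 11.45 and 11.44 on day 0, 10.59 and 11.13 on day 4, 11.00 and 11.56 on day 6, and 11.50 and 11.33 on day 8. Day 4 was the lowest group and did not overlap day 0, but the difference of -0.59 ± 0.26 did not pass (limma, adjusted p = 0.178), and days 6 and 8 overlapped day 0. A second probe set, 203628_at, read 8.88 and 8.89 on day 0, 7.18 and 8.61 on day 4, 7.44 and 9.42 on day 6, and 8.65 and 8.75 on day 8. Its low readings were those of replicate 1 on days 4 and 6, and its difference of -0.99 ± 0.69 on day 4 was not called. The probe set 203627_at lay between 7.89 and 8.36 on all arrays, and the 2 remaining of 5 probe sets were below every array median.

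IGFBP4, the binding protein that PAPPA cuts, showed the largest change among the members that passed. Its levels were 7.65 and 7.48 on day 0, 10.96 and 10.63 on day 4, 9.95 and 10.62 on day 6, and 10.68 and 10.79 on day 8. The lowest sorted array was thus well above both day 0 arrays. Days 4 and 8 overlapped each other, and both day 6 arrays lay below them, replicate 2 by a small margin. The rise was 3.23 ± 0.26 on day 4 (9.39-fold, limma adjusted p = 0.000313), 2.72 ± 0.26 on day 6 (6.58-fold, 0.000612) and 3.17 ± 0.26 on day 8 (9.0-fold, 0.000305). Each of these calls held in all 20 alternatives, with adjusted p values up to 0.00638 on day 4, 0.0106 on day 6 and 0.00614 on day 8. With the first replicates of days 4 and 6 left out the rises were 3.07, 3.06 and 3.17. Its window above was the only 1 of the 4 shown with the exact letters TATAAA, and any link of these letters to its level was not tested.

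IGFBP2, which carries an integrin-binding RGD motif beside its IGF-binding domains, read 7.99 and 7.96 on day 0. It read 9.85 and 9.41 on day 4, 9.47 and 10.01 on day 6, and 9.71 and 10.38 on day 8. All sorted arrays were above day 0 by more than the gap between any of its replicates, and the 3 sorted days overlapped. The rise was 1.66 ± 0.30 on day 4 (3.15-fold, limma adjusted p = 0.0105), 1.77 ± 0.30 on day 6 (3.40-fold, 0.00717) and 2.07 ± 0.30 on day 8 (4.2-fold, 0.0037). The day 8 call held in all 20 alternatives. The day 4 call was lost without replicate 1 or 2 of day 0 or replicate 1 of day 4 (adjusted p = 0.0792, 0.0836 and 0.0512), and the day 6 call without replicate 1 or 2 of day 0 (0.0587 and 0.061). Over all alternatives these p values ranged from 0.00857 to 0.0836 on day 4 and from 0.00415 to 0.061 on day 6.

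IGFBP7 was high in the undifferentiated line and lower on every sorted array, but unevenly so. The probe set used, 201163_s_at, read 12.27 and 12.23 on day 0, 10.29 and 6.71 on day 4, 10.63 and 7.25 on day 6, and 9.33 and 8.73 on day 8. Replicate 1 was the higher array on each sorted day, by 3.58 on day 4 and 3.38 on day 6. The differences of -3.75, -3.31 and -3.22 (each ± 1.35 SE) were not called (limma, adjusted p = 0.108, 0.129 and 0.129). A second probe set, 201162_at, read 11.17 and 10.92 on day 0, 9.35 and 7.99 on day 4, 9.33 and 7.75 on day 6, and 8.92 and 8.57 on day 8. It showed the same higher replicate on each sorted day with smaller gaps, and it was called on every day in the fit of all probe sets, with differences of -2.37 (limma, adjusted p = 0.0467), -2.50 (0.0329) and -2.30 (0.0427). With the first replicates of days 4 and 6 left out the differences of the first probe set were -5.54, -5.00 and -3.22. That setting left 1 array on each of days 4 and 6. Without replicate 2 of day 4 or of day 6 instead, the differences of those days shrank to -1.96 and -1.62.

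On days 4 and 6 several values moved with the replicate split of IGFBP7, IGFBP3 and IGFBP5. The summed intensity of 8 fibroblast and smooth muscle markers was 24010 and 15058 on day 4 and 20329 and 11239 on day 6, higher in replicate 1 both times, and 12504 and 12691 on day 8, where the order was not that of IGFBP7, against 36144 and 35812 on day 0. The sum of 6 markers of undifferentiated cells was higher in replicate 1 on each sorted day, as for IGFBP7, with 1566 and 1428 on day 4, 1578 and 1091 on day 6, and 2182 and 923 on day 8, against 35983 and 33998 on day 0. The ratio of 3′ to 5′ signal of ACTB, a measure of RNA integrity, was 18.96 and 9.18 on day 4, 31.0 and 16.0 on day 6, 9.91 and 15.1 on day 8, and 8.92 and 10.4 on day 0. The ratio was the higher in replicate 1 on days 4 and 6 and in replicate 2 on day 8. That of GAPDH differed little between replicates on days 4 and 6, with 2.22 and 2.15 on day 4 and 3.73 and 3.41 on day 6. On day 8 it was 2.41 and 3.08, higher in replicate 2 as for ACTB. On day 0 the GAPDH ratio was 1.71 and 1.91, below every sorted array. The part of these measures in the results of these 3 members was not tested. All 8 fibroblast and smooth muscle markers were above the array median on replicate 1 of every sorted day and 6 of 8 on replicate 2.

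IGFBP3, the main IGF carrier of blood serum, was spread in the other direction. Its levels by 210095_s_at were 10.65 and 10.28 on day 0, 10.68 and 11.90 on day 4, 10.05 and 13.34 on day 6, and 12.47 and 11.63 on day 8. Both day 8 arrays were above both day 0 arrays, replicate 1 of day 4 was almost level with day 0, and day 6 held both the lowest and the highest value of all 8. The differences were 0.82, 1.23 and 1.59 (each ± 0.99 SE), and none was called (limma, adjusted p = 0.631, 0.429 and 0.285). The second probe set, 212143_s_at, had the same higher replicate on each sorted day, with 7.47 and 11.18 on day 6. With the first replicates of days 4 and 6 left out the rises were 1.43, 2.87 and 1.59, with 1 array left on each of days 4 and 6. Leaving out replicate 1 of day 6 alone gave 2.87 on day 6 too. Leaving out replicate 2 of day 6 turned the direction to -0.41, so that 1 array decides the sign. Without replicate 2 of day 4 the day 4 difference was 0.21.

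IGFBP5, a binding protein that attaches to extracellular matrix, read 10.43 and 10.27 on day 0 by 211959_at. It read 7.28 and 8.75 on day 4, 7.08 and 11.08 on day 6, and 10.62 and 11.03 on day 8. Both day 4 arrays were below day 0, both day 8 arrays were above it, and day 6 spanned the whole range of the member. The differences of -2.33, -1.26 and 0.48 (each ± 1.17 SE) did not pass (limma, adjusted p = 0.230, 0.494 and 0.804). From day 4 to day 8 it was higher by 2.81 ± 1.17, with an unadjusted p of 0.0475 in limma and an adjusted p of 0.724. A second probe set, 203424_s_at, read 9.84 and 9.64 on day 0, 7.72 and 8.61 on day 4, 7.64 and 10.74 on day 6, and 8.47 and 10.05 on day 8, so that its replicate 1 on day 8 lay below day 0 where that of 211959_at lay above. With the first replicates of days 4 and 6 left out the differences of 211959_at were -1.60, 0.73 and 0.48, with 1 array left on each of days 4 and 6. The direction on day 6 was thus turned. Without replicate 1 of day 6 alone the day 6 difference was 0.73 too, and without replicate 2 of day 6 alone it was -3.26.

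**Figure D3:**
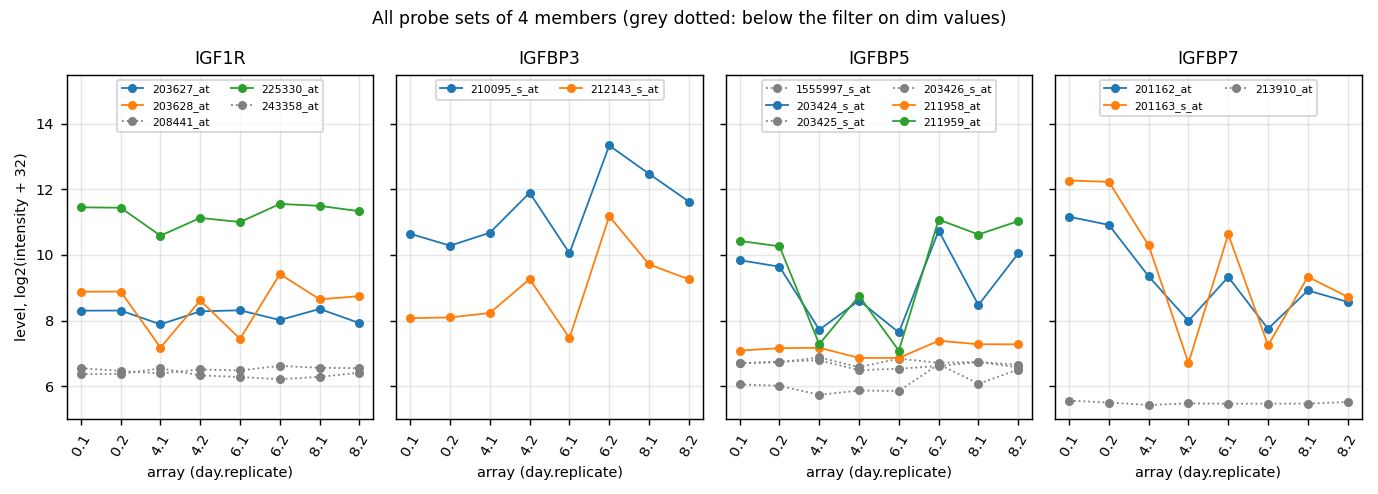
The panels show every probe set of IGF1R, IGFBP3, IGFBP5 and IGFBP7 as log2(intensity + 32) on each array, named by day and replicate, with lines that join the arrays of 1 probe set and dotted grey for those below the filter. On day 6 the 2 brightest probe sets of IGFBP3, of IGFBP5 and of IGFBP7 each moved between replicates in the same direction.

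The yolk sac and liver endoderm markers, whose cells secrete many plasma proteins, had the same higher replicate as IGFBP3 and IGFBP5 on days 4 and 6. Their summed intensity over 8 genes was 3102 and 21177 on day 4, 726 and 6671 on day 6, and 13100 and 9825 on day 8, compared with 1111 and 1130 on day 0. The sum was highest on replicate 2 of day 4, where IGFBP5 lay below both day 0 arrays. IGFBP3 and IGFBP5 were highest on replicate 2 of day 6. Within days, replicate 2 had the higher sum on days 4 and 6 and replicate 1 on day 8, as for IGFBP3. The sums of other lists had the same order of replicates. That of 7 endothelial markers was 25934.5 and 31658.5 on day 4, 20964 and 31685 on day 6, and 30662 and 27104 on day 8. That of 4 red cell markers was 461 and 503, then 425 and 4582.5, then 9597 and 7071.5 on these days. From 4 to 7 of the 8 endoderm markers were above the array median on an array, and APOA1 was below it on all 8. The part of any of these cell types in the IGFBP3 and IGFBP5 results was not tested.

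IGFBP6, which binds IGF2 in preference to IGF1, read 8.80 and 8.85 on day 0, 8.86 and 8.09 on day 4, 8.64 and 7.84 on day 6, and 8.65 and 7.75 on day 8. Replicate 1 was the higher on each sorted day, by 0.77, 0.80 and 0.91, as for IGFBP7. The differences of -0.35, -0.59 and -0.62 (each ± 0.41 SE) were not called on any day.

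IGFBP1, a binding protein of liver and decidua, was below the array median on day 0, at 6.32 on both arrays. It read 6.87 and 7.15 on day 4, 6.60 and 7.37 on day 6, and 8.33 and 7.05 on day 8. All sorted arrays were above day 0, and replicate 1 of day 8 stood above the rest. The differences were 0.69, 0.67 and 1.37 (each ± 0.42 SE), and that of day 8 lay close to the threshold without passing it (limma, adjusted p = 0.055). It was called on day 8 in 6 of 18 alternatives, among them those without either day 6 array or replicate 2 of day 8, with adjusted p values from 0.016 to 0.207. Since this member passed the filter through sorted arrays alone, a positive difference was favoured by construction.

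**Figure D4:**
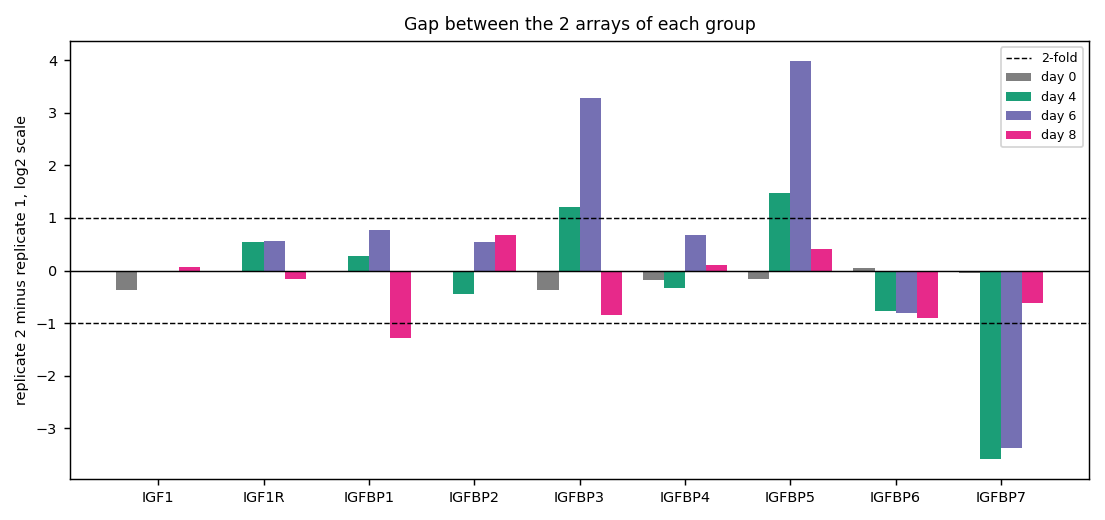
The bars show replicate 2 minus replicate 1 on the log2 scale for 9 members at each day, with dashed lines at 2-fold. On day 0 no bar reaches the lines, while on day 6 IGFBP5 and IGFBP3 lie over 3 above 0 and IGFBP7 over 3 below it.

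The gaps between replicates set apart these 3 binding proteins from most genes. On day 4 the gap of IGFBP7 was exceeded by 5 of 13636 genes and on day 6 by 9. The gap of IGFBP5 on day 6, 3.99 or 15.9-fold, was exceeded by 2 genes, and that of IGFBP3, 3.28, by 14. In all, 3 of 9 members differed over 2-fold between replicates on day 4, 3 on day 6, 1 on day 8 (IGFBP1, by 1.28) and 0 on day 0, beside 6.67%, 9.25%, 1.58% and 0.00733% of all genes.

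Between sorted days 0 of 9 members passed, and 0% of all genes were called in either direction in the comparisons of day 6 and of day 8 with day 4 and in that of day 8 with day 6. At an unadjusted p under 0.05 in limma, 722 genes passed between days 4 and 6 and 338 between days 6 and 8. Between days 4 and 8 it was 887. In each comparison 682 would be expected if no gene differed. Of the members only IGFBP5 passed, from day 4 to day 8. The 95% interval from day 4 to day 8 was -0.68 to 0.56 for IGFBP4 and -0.31 to 1.13 for IGFBP2, but -2.68 to 3.74 for IGFBP7, so that large changes of the last would not have been seen.

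Downstream of the receptor, the genes called included 3 insulin receptor substrates, each lower in sorted cells. Of 10 tested receptor and adaptor genes, 2 rose and 4 fell on day 4, where 8.53% of all genes rose and 9.92% fell, and the counts on days 6 and 8 were the same. IRS1, IRS2 and IRS4, the insulin receptor substrates that couple the receptor to PI3 kinase, fell by 2.38, 1.94 and 3.14 on day 4. GRB14, an adaptor that inhibits the insulin receptor, fell by 2.16, GRB10, its relative, rose by 1.17 and SHC1, which links receptors to RAS, rose by 1.29. IRS4 read 9.40 and 9.59 on day 0 and between 6.15 and 7.27 on the sorted arrays, and GRB14 read 8.87 and 8.99 against 5.77 to 6.95. Of the sorted arrays only replicate 1 of day 4 had GRB14 above the array median. GRB14 thus passed the filter only through day 0, so a fall was favoured by construction. The day 4 calls of IRS4, GRB14 and SHC1 held in all 20 alternatives, while those of IRS1, IRS2 and GRB10 were lost without replicate 1 or 2 of day 0 or replicate 2 of day 4. Over all alternatives the limma adjusted p of these 3 reached 0.103, 0.123 and 0.257, the last with the mean of all GRB10 probe sets. The median change of the list was 0.04 on day 4 and 0.42 on day 8, against 0.02 and -0.03 for all genes.

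Among 14 tested PI3 kinase and AKT genes, 1 rose and 2 fell on day 4 and 1 rose and 1 fell on day 8. These counts lie near the shares over all genes, 8.53% and 9.92% on day 4 and 10.4% and 14.1% on day 8. AKT1 rose by 0.78 on day 4, and the catalytic subunits PIK3CB and PIK3CD fell by 1.17 and 1.03. The median of the list was 0.11 on day 4 and 0.25 on day 8. All 3 day 4 calls were lost without replicate 1 of day 0, and those of AKT1 and PIK3CD also without replicate 2 of day 0, replicate 2 of day 4 or either day 8 array. Over all alternatives the limma adjusted p reached 0.204 for AKT1, 0.054 for PIK3CB and 0.158 for PIK3CD.

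The proteases and carriers that act on the ligand complex held 0 rises and 1 fall among 7 tested genes on day 4, and 1 rise and 2 falls on day 8, with medians of -0.03 and 0.26. With so few genes these counts too are near the shares over all genes (8.53% and 9.92%, then 10.4% and 14.1%). STC2, an inhibitor of PAPPA, fell by 2.37 on day 4, a call lost without either day 0 array (limma, adjusted p = 0.059 and 0.0641, from 0.000213 to 0.0641 over alternatives). PAPPA itself and ADAM12, a pair of proteases that cut IGF-binding proteins, were chosen here after their values were seen. On day 8 PAPPA fell by 2.93 (limma, adjusted p = 0.0211) and ADAM12 rose by 2.34 (0.0189), and each call was lost in 4 of 20 alternatives, those without either array of day 0 or of day 8, with adjusted p values up to 0.132 and 0.110.

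Of 9 tested genes for other secreted proteins with an IGFBP-like domain, 1 rose and 4 fell on day 4 and on day 8, with medians of -0.05 and -0.25. Over all genes 8.53% rose and 9.92% fell on day 4, and 10.4% and 14.1% on day 8. CCN2, a matrix protein induced by YAP and TGF-beta signals, fell by 3.63 on day 4, or 12.3-fold. It read 11.50 and 11.35 on day 0 and between 7.22 and 8.26 on the sorted arrays. IGFBPL1 fell by 3.27, from 10.06 and 9.91 on day 0 to between 6.27 and 7.77. Both calls held in all 20 alternatives. CCN1 and CCN4 fell by 1.86 and 1.18 on day 4 and CRIM1, a transmembrane BMP antagonist, rose by 0.96. CCN4 was below the array median on every sorted array and passed the filter through day 0 alone, so a fall was favoured by construction. The calls of all 3 were lost without replicate 1 or 2 of day 0, those of CCN1 and CCN4 also without replicate 2 of day 4. The CCN1 call was lost in 9 of 20 alternatives, among them those without the filter or without either day 8 array. With the mean of all CRIM1 probe sets the limma adjusted p of CRIM1 was 0.209.

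For the IGF2 locus and the regulators of IGF2 mRNA, 0 of 8 tested genes rose and 2 fell on day 4, while 1 rose and 3 fell on day 8, with medians of -0.34 and -0.16, beside 8.53% and 9.92% of all genes on day 4 and 10.4% and 14.1% on day 8. IGF2BP3, which binds IGF2 mRNA, fell by 1.38 on day 4 in all 20 alternatives. LIN28A, an RNA-binding protein of undifferentiated cells, fell by 1.44, a call lost without either day 0 array. From day 4 to day 8 no gene of the 5 pathway lists was called.

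**Figure D5:**
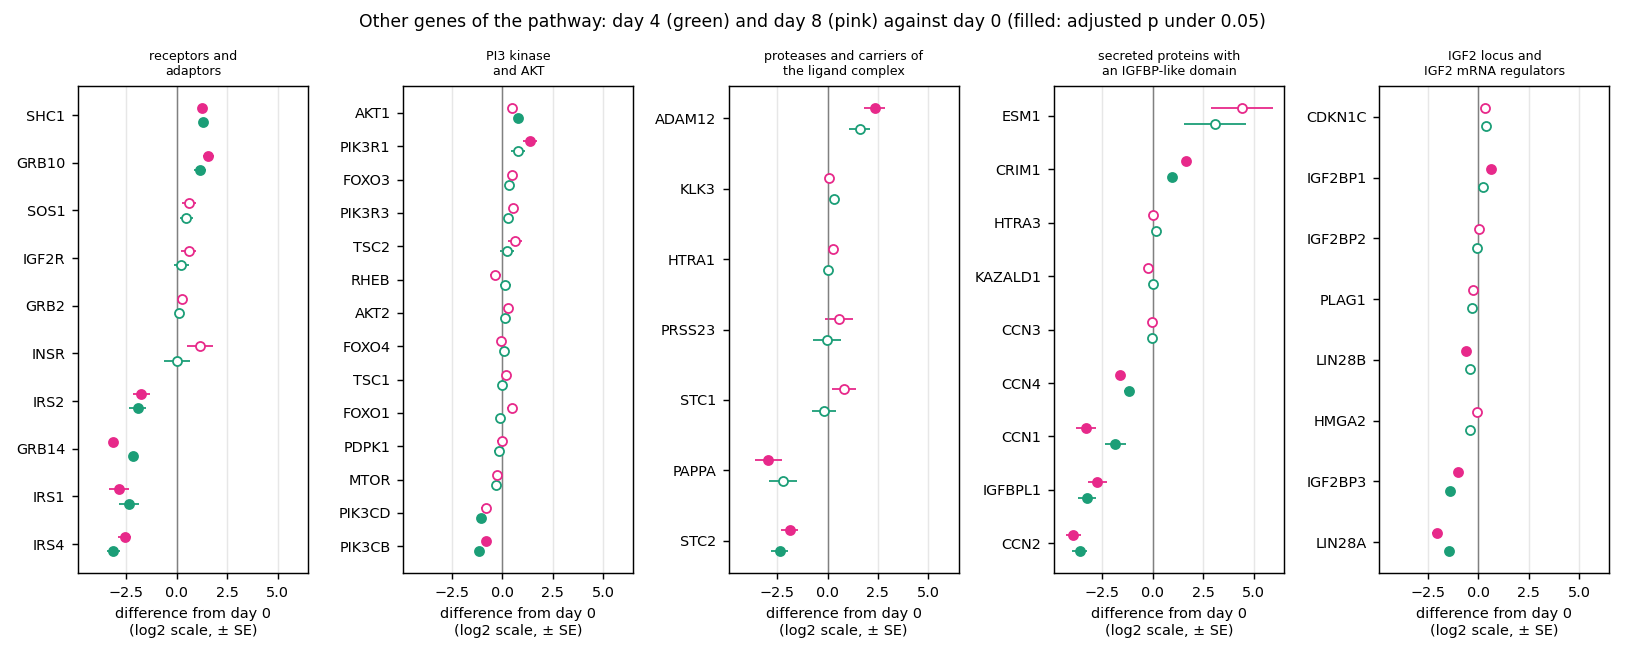
Points show the difference from day 0 on the log2 scale with its SE for the tested genes of 5 pathway lists, green for day 4 and pink for day 8, filled where the adjusted p was under 0.05. IRS1, IRS2, IRS4 and GRB14 lie on the lower side in the first panel, and CCN2 lies lowest in the fourth.

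For members whose group means spanned at least 1 on the log2 scale, the most similar profiles over the 8 arrays were described by Pearson's r. The arrays fall into day 0 and sorted arrays, so any gene with that step scores high, and 849 genes had r over 0.9 with IGFBP4 and 730 with IGFBP2. Nearest to IGFBP4 were CNRIP1 (0.999) and RFTN1 (0.995), and nearest to IGFBP2 were HOXB4 (0.993) and TMUB2 (0.992). For IGFBP7 they were NODAL (0.993) and LRP8 (0.988), with 386 genes over 0.9. LRP8 read 8.52 and 6.90 on day 4 and 8.65 and 7.02 on day 6, the same replicate split as IGFBP7. For IGFBP3 they were IVNS1ABP (0.974) and NOX4 (0.973), with 98 genes over 0.9, for IGFBP5 LOC155060 (0.977) and PHOSPHO2 (0.971), with 74, and for IGFBP1 ARID5B (0.972) and PGF (0.971), with 41. These values share their arrays, and no test was made of them.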

How the data were processed

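Gene expression was measured on 8 arrays, 2 per group, with groups and replicate numbers taken from sample titles. For 3 samples of days 6 and 8 the source name gives day 4, while their other labels give the later day, and were followed. The values the authors deposited are linear intensities, 1 for each probe set of an array, made with MAS5 per the submitters' processing notes (the sources used here give no version). Array medians were 88.8 to 93.4 and the lowest values 8.61 to 8.84, and detection calls were not used here. The number of arrays limits the precision.

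Values were transformed as log2(intensity + 32) with no added scaling. A gene was read from its probe set of 1 symbol with the highest mean over 8 arrays, with _x_at probe sets as a last resort. The test took genes that exceeded the median of an array on 2 or more arrays and was run with limma 3.58.1 in R 4.3.3 (1 fit, a term per group, eBayes with trend, 4 residual and 2.84 prior degrees of freedom, Benjamini-Hochberg over 13636 genes). All 30343 probe sets above that filter were fitted likewise for IGF2 and second probe sets. Scripts were tested on simulated data. Plots used Python 3.11.15 with matplotlib 3.10.9. Genes of the pathway were named where they passed at day 4 against day 0 or day 8 against day 4, at most 6 per list by smallest p. The members, lists and tests were chosen with earlier results of these data known. Alternatives were offset, filter, scaling, probe set rule, trend, arrays in the fit and the replicate block. Sequences come from RefSeq (GRCh38.p14).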

Additional observations from a re-analysis of the deposited data

How the results depend on the processing

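With either day 0 array left out, and likewise for other days, the array that remains is taken to have the spread of the groups with 2 arrays. Over arrays left out in turn, the members called ranged from 1 to 3 at day 4, from 1 to 4 at day 6 and from 2 to 4 at day 8, and all genes called from 991 to 3143, from 1205 to 3590 and from 1217 to 4360. Between sorted days the range over all genes was 0 to 1 for day 6 against day 4, 0 to 8 for day 8 against day 6 and 0 to 3 for day 8 against day 4. With only the 4 arrays compared, 4 members were called at day 4 and 5 at day 8, where all genes gave 6784. With the first replicates of days 4 and 6 both left out, 5 members were called on each day, all genes gave 4765, 6098 and 6780, and 21 genes were called from day 4 to day 8. That setting turned IGFBP5 at day 6 from -1.26 to 0.73. Every probe set on its own gave 4370, 5645 and 5849 calls. With a replicate block, 3 members were called on each day against 2, as IGFBP7 passed (-3.75, limma adjusted p = 0.0263 at day 4, 0.0342 at day 6 and 0.0348 at day 8). Deviations of equal replicate numbers correlated between sorted days (r = 0.6 for days 4 and 6, 0.41 for days 6 and 8, 0.19 for days 4 and 8) and not with day 0 (-0.03 to 0.02). The labels tie equal numbers to no shared culture or batch, so the numbers were not taken as pairs. Between sorted days the replicate block gave 0 calls. Over the single genes and probe sets, 6758 results stayed on their side of the threshold, 214 of them with the other sign and none of these a called value, while 229 lost a call and 104 gained one in the same direction. For 1 result, IGFBP5 as given, the sign turned and the value became a call. The cause was not tested for any of these.

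The limits are the 2 arrays per group, the sort that separates day 0 from all other days, and the large gaps at days 4 and 6. Dim probe sets, including 3 of IGF1 and 3 of IGFBP5, lie below the array medians, where changes could not be read.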
